A study of Mus musculus with 2 samples.

Results

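The neighbouring genes Tmem176a and Tmem176b were examined in cultured mouse mesenchymal stromal cells (MSCs, titled fibroblasts in the labels), monoclonal and immortalized, that were either Dicer WT or Dicer KO. Dicer is the ribonuclease that cuts microRNA precursors to their mature form, so the KO cells are a model of microRNA loss. The locus was taken as all listed events on mm9 chromosome 6 between positions 48770000 and 48805000, which gave 25 of the 21418 events of the 6 deposited lists. An event is a point at which the authors' software placed reads of a chromatin immunoprecipitation (ChIP-seq, sequencing of DNA pulled down with an antibody to a histone mark), and each list holds the events higher in 1 genotype for 1 mark. The labels describe 2 samples, 1 per genotype, for H3K27ac, and the H3K4me3 and H3K36me3 lists carry the genotype names only. Both genotypes were grown in the same medium, and the labels name no agent other than those of the fixation. How Dicer was deleted is not given in the sources used here. Since the cells are monoclonal, other differences between clones cannot be told apart from the genotype. A genotype has a single value per mark, so no replicate error can be stated. The locus was selected on its KO and WT reads in these lists, so each difference between KO and WT is given as a description, without a test.

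Tmem176a and Tmem176b encode related small membrane proteins that resemble the MS4A family. Tmem176b, also called Lr8 or Clast1, is best known from immature dendritic cells, where it acts as an ion channel of internal membranes, and Lr8 was also described in lung fibroblasts. H3K4me3 marks the starts of active genes, H3K27ac marks active promoters and enhancers, and H3K36me3 is laid down along gene bodies as RNA polymerase II passes. A transcribed gene therefore typically carries H3K4me3 and H3K27ac at its start and H3K36me3 downstream of it. RNA was not analysed here.

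In RefSeq (GRCm38.p6) Tmem176b is on the minus strand of chromosome 6 and Tmem176a on the plus strand. RefSeq's promoter table gives 2 starts for Tmem176a and 3 for Tmem176b, which lie head to head. The RefSeq extent of Tmem176b also covers Tmem176a, so this table does not hold the outermost start of Tmem176b. The closest pair of divergent starts is 109 bp apart. The 108 bases between them, chr6:48841375-48841482 of GRCm38.p6 on the plus strand, are shown because they lie upstream of a start of each gene. Capitals mark the one match to GGAAGT, a motif found in sites bound by ETS factors.

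Tmem176b to Tmem176a, between starts: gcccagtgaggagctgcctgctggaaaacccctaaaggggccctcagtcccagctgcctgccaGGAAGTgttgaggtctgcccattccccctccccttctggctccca

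This stretch was rich in G and C (63.9%) but held 0 CpG dinucleotides, as did 19.5% of the stretches of this length before the starts of all 32851 RefSeq promoter windows. The 300-base windows of Tmem176a held 2 and 5 CpG and those of Tmem176b held 1, 2 and 4, against a median of 7 over all windows. At the starts in the promoter table, both genes thus lie in sequence with fewer CpG than the median promoter. GGAAGT, searched on both strands, occurred in 2 of 2 Tmem176a windows, in 1 of 3 Tmem176b windows and in 23.8% of all windows. These windows overlap, and the printed match lies in all 3 that hold the motif, so they are not separate sites. In stretches of 108 bases it occurred in 10.6%. Other motifs were searched in the same way and were in none of the 5 windows. Of all windows, 13.6% held the core promoter motif TATAAA and 37.4% the motif CCAAT. The Sp1 motif GGGCGG was in 35.7% of them, the AP-1 motif TGACTCA in 5.20% and the E-box CACGTG in 7.15%. The motifs did not overlap each other in the printed stretch, which held only GGAAGT. The RefSeq positions are of another build than the events, so no event is placed on this sequence.

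All 25 events at the locus were higher in KO, and 0 were higher in WT. The H3K36me3 events numbered 16, the H3K4me3 events 4 and the H3K27ac events 5. Over all chromosomes, 33.8% of the listed H3K36me3 events, 11.8% of the H3K4me3 events and 82.5% of the H3K27ac events were higher in KO. On chromosome 6 these shares were 35.8%, 20.4% and 82.2%. The H3K27ac count is near its background share. Since the locus was chosen for its reads, nothing is read from these counts.

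Listed H3K36me3 events lay apart from those of H3K4me3, while 3 of the 5 H3K27ac events lay with H3K4me3. In the centre, H3K4me3 and H3K27ac events covered 2.30 kb, from 48789799 to 48792096. H3K36me3 lay on both sides and had no listed event for 4.22 kb (48788940 to 48793165) across that centre. The side of lower coordinates, towards which Tmem176b is transcribed in RefSeq's orientation, held 10 H3K36me3 events over 6.77 kb. The side of higher coordinates, towards which Tmem176a is transcribed, held 6 over 2.77 kb. RefSeq's longest models of Tmem176b also cover Tmem176a, so H3K36me3 on the high side cannot be given to 1 gene. A separate pair of H3K27ac events lay beyond the low side, 1.19 kb before its first H3K36me3 event. All events together spanned 15.98 kb.

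**Figure D1:**
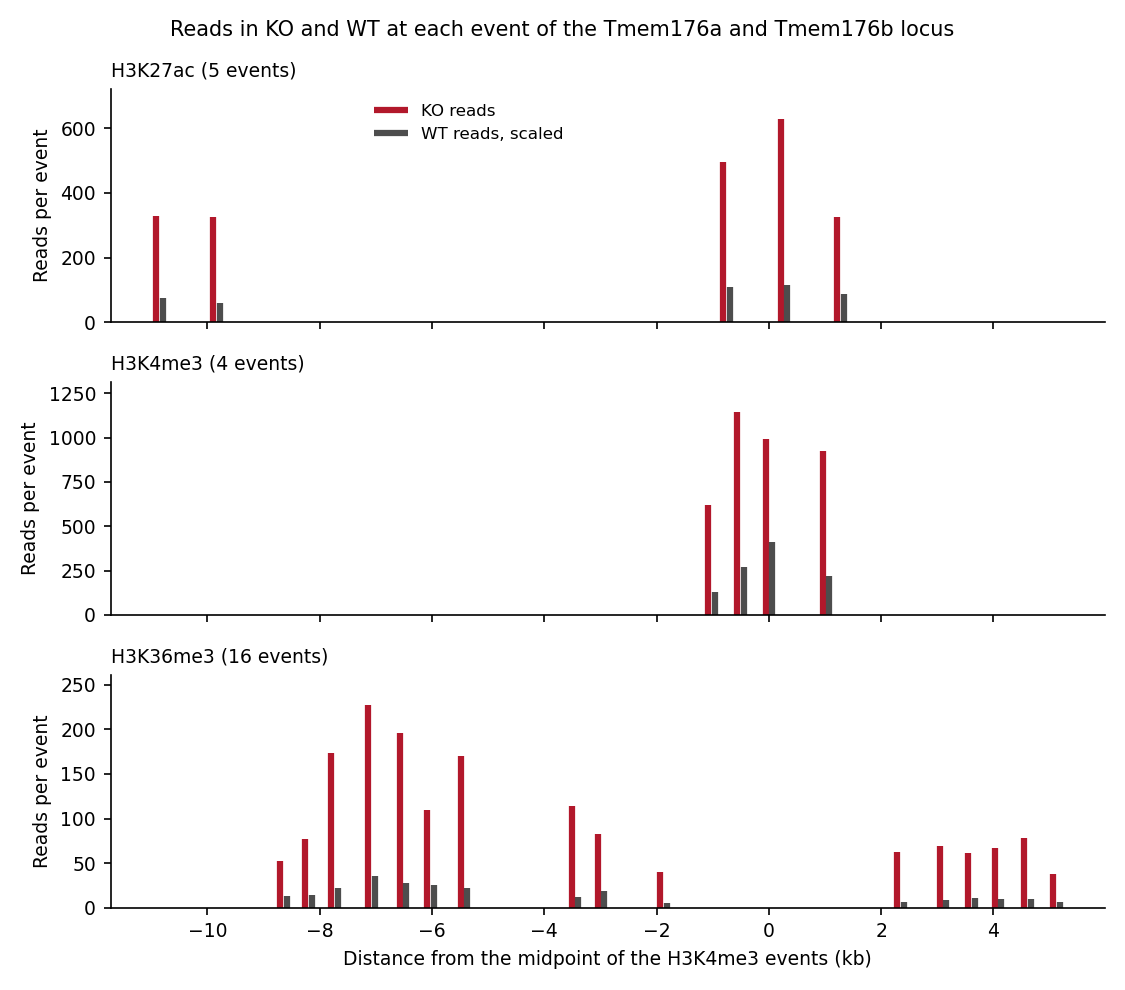
Reads per event (vertical axes, one panel per mark) against distance in kb from the midpoint of the H3K4me3 events. Red bars are KO reads and grey bars WT reads at the scale of the lists, with a single value for each. Red bars exceed grey bars at all 25 events, H3K4me3 is confined to the centre in these lists, and H3K36me3 lies on both sides of it.

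H3K4me3, the promoter mark, was listed at 4 points within 2.04 kb. At 48789799 KO had 621 reads and WT 127 after scaling, a ratio of 4.88 (95% counting interval 3.75 to 6.52). At 48790308 it had 1143 against 269, a ratio of 4.25 (3.54 to 5.17). These ratios are near the median of 4.10 in the KO list of this mark. At 48790820 it had 991 reads in KO against 412 in WT, a ratio of 2.41 (2.06 to 2.82). At 48791835 it had 922.5 against 217, a ratio of 4.25 (3.46 to 5.28). The event at 48790820 therefore had the most WT reads and the lowest ratio of the 4. It lay 3 bp from the midpoint between the outer events, so the smallest ratio was at the middle of the H3K4me3 events.

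Together the 4 events had 3677 KO reads and 1026 WT reads after scaling, a ratio of 3.59 (3.26 to 3.95). In KO reads they stood high in their list of 738 events, between percentiles 93.6 and 98.8. In ratio they did not, between percentiles 12.6 and 59.5. At least 4-fold differences were found at 3 of the 4 events, against 50.8% of all KO-higher H3K4me3 events. Sorted by −log10 q they took ranks between 26 and 101. H3K4me3 here thus combined high KO reads with ratios near or below the middle of the list.

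WT reads at these events were compared with the program's expected reads for chromosome 6, called background here, a quantity that the files leave undefined. H3K4me3 in WT was between 0.619 and 2.004 times the WT background, with 1 of 4 events below it. In KO it was between 4.80 and 8.83 times the KO background. The WT value at the middle event, 2.004, was the highest. The share of all KO-higher H3K4me3 events with WT reads below background was not computed, so nothing is read from that count.

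H3K27ac, the mark of active promoters and enhancers, had 3 events in the centre. At 48790063 it had 497 reads in KO against 108 in WT, a ratio of 4.59 (3.78 to 5.64). At 48791088 it had 628 against 116, a ratio of 5.43 (4.51 to 6.59). At 48792096 it had 326 against 85.9, a ratio of 3.79 (3.03 to 4.80). Each of them lay 245 to 268 bp from the nearest H3K4me3 event. The strongest, at 48791088, fell in the widest gap between the H3K4me3 events, which was 1015 bp where the others were 509 and 512 bp.

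The pair beyond the low side was of similar ratio. At 48779960 H3K27ac had 329.6 reads in KO against 73.3 in WT, a ratio of 4.497 (3.55 to 5.80). At 48780975 it had 327 against 57.8, a ratio of 5.65 (4.35 to 7.46). Pooled, the pair had a ratio of 5.01 (4.20 to 6.02) and the 3 central events 4.68 (4.17 to 5.26), so the intervals overlapped. No H3K4me3 event of either list lay at the pair.

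All 5 H3K27ac events together had 2107 KO reads against 441 scaled WT reads, a ratio of 4.78 (4.34 to 5.27), above the median ratio of 2.87 in the KO list. A ratio of at least 4 was reached by 4 of 5, against 18.6% of the KO-higher H3K27ac events. In KO reads the 5 events ranged from percentile 34.7 to 85.8 of the 8323 in the list, and by −log10 q from rank 348 to 6040. In WT all 5 had fewer reads than the WT background, between 0.382 and 0.765 times it. In KO they had between 1.45 and 2.80 times the KO background. The share of all KO-higher H3K27ac events with WT reads below background was not computed, so nothing is read from that count. H3K27ac here thus combined moderate KO reads with ratios above the median of the list.

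**Figure D2:**
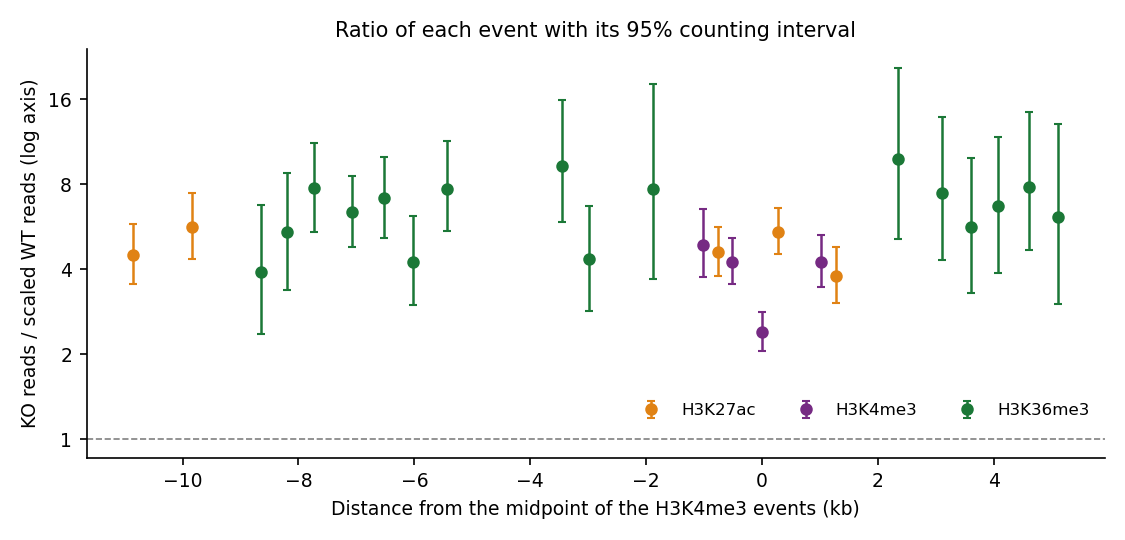
Ratio of KO to scaled WT reads for each of the 25 events (log axis) against distance in kb from the midpoint of the H3K4me3 events. Points are coloured by mark and bars are 95% counting intervals. The dashed line marks a ratio of 1, above which the choice of KO-higher events puts every point. The H3K4me3 event at the middle, at 2.41, is the lowest.

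H3K36me3, the mark of transcribed gene bodies, was the only mark with events of the locus among the first 10 of its list. Of its 16 events, 4 were among the first 10 of the 1709 in the KO list by −log10 q and 10 were among the first 100. The best H3K4me3 rank was 26 of 738, with 3 events among the first 100, and the best H3K27ac rank was 348 of 8323. At 48783741 it had 227 reads in KO against 35.6 in WT, a ratio of 6.38 (4.79 to 8.57), second in the list. At 48784300 it had 196 against 27.5, a ratio of 7.12 (5.16 to 9.95). At 48783079 it had 173 against 22.3, a ratio of 7.76 (5.42 to 11.2). These events stood side by side in a run of 7 on the low side, from 48782169 to 48785386, where KO had 1006 reads against 161 in WT.

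The rest of that run was less even. At 48785386 H3K36me3 had 170.5 reads in KO against 22.1 in WT, a ratio of 7.71 (5.45 to 11.4). At 48784793 between such high points it had 109.9 against 26.0, a ratio of 4.23 (2.98 to 6.16). At 48782169, the outer end of the run, it had 52.2 against 13.4, a ratio of 3.90 (2.36 to 6.73), the lowest of the 16. All 7 intervals overlapped one another.

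Nearer the centre the low side held 3 more events. At 48787363 H3K36me3 had 114.5 reads in KO against 12.3 in WT, a ratio of 9.31 (5.89 to 15.8). At 48787829 it had 82.5 against 19.0, a ratio of 4.34 (2.85 to 6.68). At 48788940 it had 40 against 5.2, a ratio of 7.69 (3.69 to 18.1). KO reads were lower towards the centre, and the last of these equalled the list's median of 40 reads. At 48787363 and 48787829 the program's local expected reads were 70.0 and 43.4, the highest at the locus, and −log10 q was only 5.17 and 5.96.

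The high side was flatter. Its 6 events had between 38.4 and 78.1 reads in KO and between 6.3 and 10.9 in WT. The event nearest the centre, 48793165, had 62.0 against 6.3, a ratio of 9.84 (5.12 to 20.6), the highest of the 16. The event with most reads, 48795427, had 78.1 against 10.0, a ratio of 7.81 (4.68 to 14.4). Pooled, the high side had a ratio of 7.12 (5.64 to 9.03) and the low side 6.29 (5.57 to 7.10). The sides differed in reads per event, with a KO median of 112 on the low side and 64.75 on the high side, and their ratios were not told apart by counting error.

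Over all 16 events H3K36me3 had 1619 KO reads against 250.5 scaled WT reads, a ratio of 6.46 (5.81 to 7.19). A ratio of at least 4 was found at 15 of 16, against 51.5% of the KO-higher H3K36me3 events. The KO list had 100 events with 100 reads or more, of which 6 were at this locus, and 19 with 150 or more, of which 4 were here. In KO reads the 16 events ranged from percentile 47.8 to 99.8 and in ratio from 46.8 to 88.5. Each stood higher in the list by reads than by ratio, except the events at 48788940, 48793165 and 48795935, where the order was reversed.

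Events of each mark were spaced differently. The median distance between neighbouring events was 530 bp for H3K36me3 (455 to 4225 bp), 512 bp for H3K4me3 (509 to 1015 bp) and 1020 bp for H3K27ac (1008 to 9088 bp). The settings in the names of the lists differed from mark to mark. The event count of a mark is therefore no measure of how much chromatin carried it. The names of the H3K4me3 and H3K27ac lists hold the term dnase, which those of H3K36me3 lack. Whether this shaped the layout of listed events at the locus was not tested. Neighbouring events share a domain and are not replicates of each other.

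On either side of the locus a stretch of chromosome 6 held no listed event. The nearest listed event of any mark or direction below it was a KO-higher H3K27ac event 236 kb away at 48544346, with 1096 reads against 397 and a ratio of 2.76. Above it the nearest was a KO-higher H3K27ac event 251 kb away at 49046946, with 719.6 reads against 229.8 and a ratio of 3.13. The nearest other KO-higher H3K36me3 event lay 261 kb above, at 49057352 with a ratio of 18.5, and below the locus the nearest was 10.7 Mb away. For KO-higher H3K4me3 the nearest event lay 368 kb above, at 49163888 with a ratio of 26.6, and below the locus 9.93 Mb away. The event at 49163888 belongs to another region with all 3 marks higher in KO, from 49144759 to 49167522. The closest WT-higher event, of H3K36me3, lay 297 kb below at 48482906. In the gene order of RefSeq the next protein-coding genes are Gimap3 and Gimap5, small GTPases of immune cells, before the locus and Gm7932 and Aoc1, an amine oxidase, after it.

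Among H3K36me3 regions, made by joining KO-higher events within 5 kb, the locus held the second most events. Of 989 regions, the one on chromosome 7 from 138088351 to 138131146 held 28 events, and the locus shared second place, at 16, with chromosome 2 from 157951585 to 157970363. By KO reads the locus was also second, and with a span of 13.8 kb it was the fourth longest. Its mean of 101 KO reads per event compared with 50.01 in the chromosome 7 region and 66.1 in the chromosome 2 region. Among the 50 regions with at least 5 events this mean had rank 5, and the median was 54.4. Its ratio of 6.46 compared with 4.05 (3.68 to 4.46) and 4.07 (3.64 to 4.55) there. The regions tied at 12 events had ratios of 4.46 (chromosome 13 from 118032326) and 4.76 (chromosome 17 from 74232033). By ratio the locus had rank 9 of the 50 regions with at least 5 events, whose median was 4.47.

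**Figure D3:**
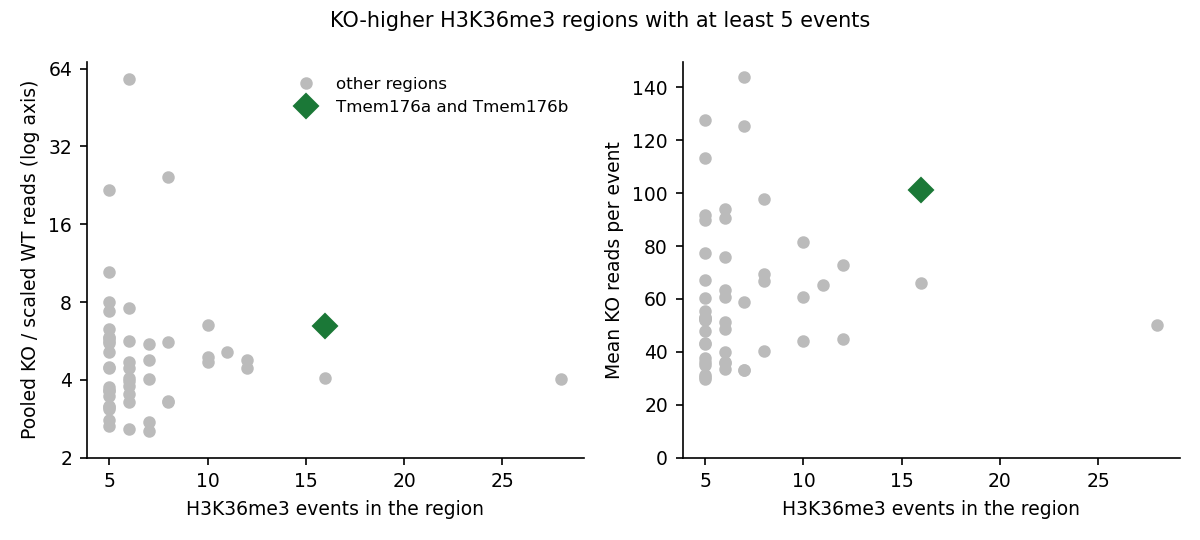
Each point is one of the 50 KO-higher H3K36me3 regions with at least 5 events. Number of events (horizontal axes) is plotted against the pooled ratio (left, log axis) and the mean KO reads per event (right). The locus (green diamond, 16 events) has a ratio of 6.46 and 101 reads per event, more reads per event than the other regions with 10 or more events. Among all 50 regions it has rank 5 by reads per event.

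Listed H3K4me3 and H3K27ac events were also counted near the long H3K36me3 regions. Of the 9 regions with at least 10 H3K36me3 events, 3 had a KO-higher H3K4me3 event within 10 kb and 7 a KO-higher H3K27ac event. The locus had 4 and 5 such events. The chromosome 2 region had 2 and 4, and the third, on chromosome 12 from 9895358, had 1 and 7. The chromosome 7 region had 0 H3K4me3 and 5 H3K27ac events. Of the 50 regions with at least 5 events, 10 had H3K4me3 and 8 had both marks higher in KO nearby, and 0 had a WT-higher event of either. The shares over all 989 regions were not computed. The KO lists also differ in size, with 738 H3K4me3 and 8323 H3K27ac events. Nothing particular to long regions, and no contrast between the marks, is therefore read from these counts.

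With events of all lists chained within 10 kb, 63 regions carried all 3 marks higher in KO and nothing higher in WT. Among them the locus had the most H3K36me3 reads in KO, the second most H3K36me3 events and the third most H3K4me3 reads. For H3K27ac it stood lower, at rank 21 in KO reads and rank 15 in events. The median region had 3 H3K36me3, 1 H3K4me3 and 3 H3K27ac events. In ratio the locus was in the middle of the 63: with 1 read added to each genotype, its 6.44 for H3K36me3 was rank 23, its 3.58 for H3K4me3 rank 42 and its 4.77 for H3K27ac rank 22. The medians were 4.96, 4.19 and 3.73.

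The regions closest to it in the log2 ratios of the 3 marks were on chromosome 6 from 137503897 to 137517350 (distance 0.50), chromosome 2 from 179946019 to 179965900 (0.58) and chromosome 11 from 95834218 to 95844342 (0.58). The chromosome 6 region had ratios of 6.16 for H3K36me3, 2.58 for H3K4me3 and 5.24 for H3K27ac. The chromosome 2 region had 7.43, 4.31 and 3.44, and the chromosome 11 region 4.40, 3.94 and 5.19. They held 140, 289 and 381 KO reads of H3K36me3, against 1619 at the locus. Genes in these regions were not assigned, for want of an annotation in mm9.

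**Figure D4:**
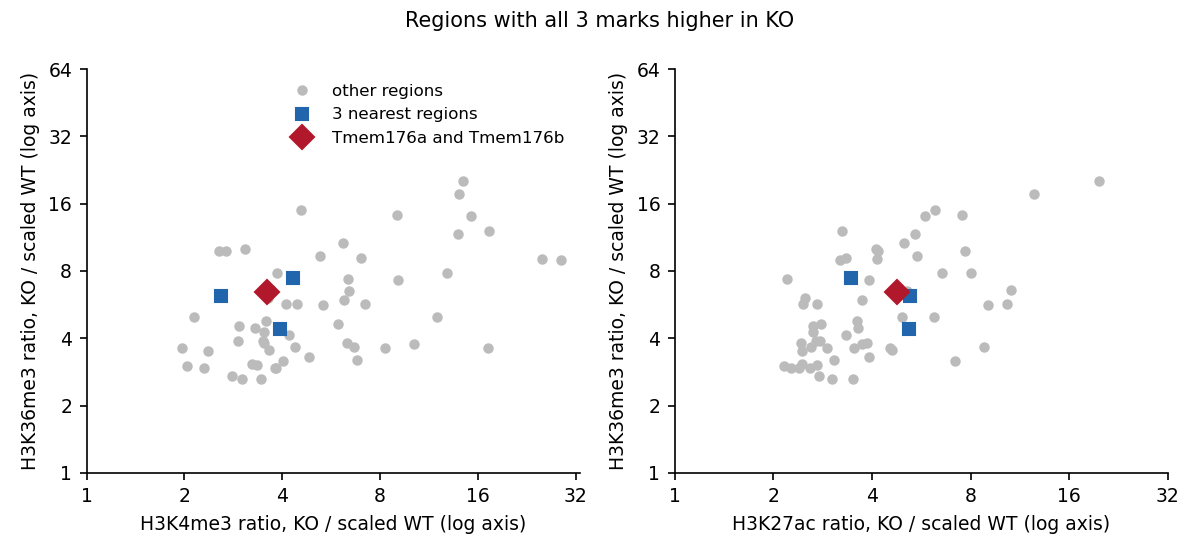
Each point is one of the 63 regions with all 3 marks higher in KO, with the H3K36me3 ratio against the H3K4me3 ratio (left) and the H3K27ac ratio (right), on log axes. The locus (red diamond) at 6.44, 3.58 and 4.77 lies within the cloud, and blue squares are the 3 regions nearest to it.

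The size of each ratio depended on how WT reads were scaled to KO reads. Its direction stayed KO-higher, which the use of KO-higher lists favours, so this is no independent support. The factors of the WT reads, inferred from the values in the KO lists, were 0.575 for H3K36me3, 2.15 for H3K4me3 and 0.85 for H3K27ac. In unscaled reads the ratios were 3.72, 7.69 and 4.06. With each genotype's reads divided by its own chromosome 6 background they were 5.70 for H3K4me3 and 3.22 for H3K27ac. The mark with the largest ratio was thus H3K36me3 at the scale of the lists and H3K4me3 in unscaled reads. Relative to the median of 20 chromosomes, chromosome 6 had 1.11 times the KO to WT background in the H3K27ac lists and 1.05 times in the H3K4me3 lists. For H3K36me3 the lists give local expected reads, so no such scale was used.

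**Figure D5:**
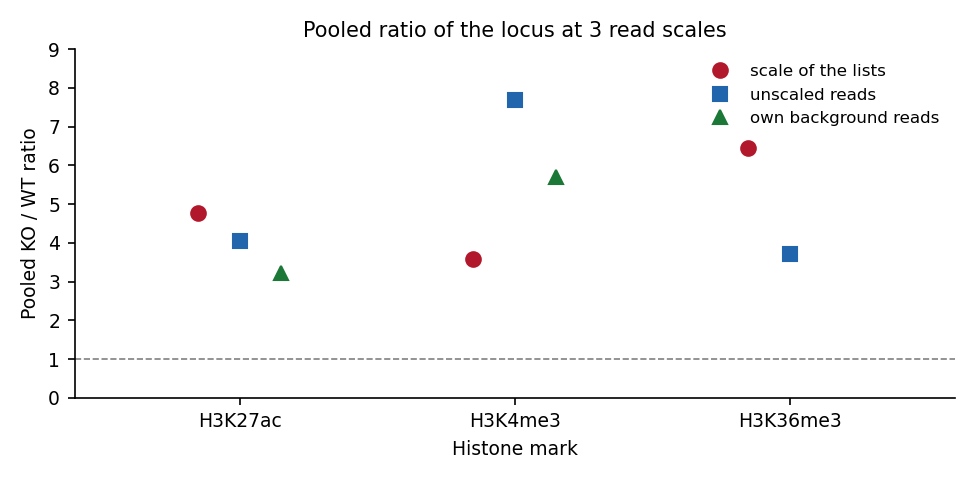
Pooled KO to WT ratio of the locus (vertical axis) for each mark, at the scale of the lists (circles), in unscaled reads (squares) and in own background reads (triangles, H3K27ac and H3K4me3 only). All 8 values lie above 1 (dashed line), between 3.22 and 7.69, which the choice of KO-higher events favours.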

How the data were processed

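The build is mm9, and the submitters' processing notes also list TopHat 1.4. The 6 lists deposited by the authors come from the event finders GPS or GEM, per the file names, which give no version. The H3K36me3 list of KO is from GPS and that of WT from GEM. Replicates were pooled for H3K27ac, per the file names. Per the file headers, each event has an estimated count in the higher genotype, a scaled signal of the other genotype, a fold (the ratio of both), expected reads and −log10 p and q values. The other deposited score columns were not used. The authors' lists start at a −log10 q of 2.

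To recover the scaling factor, steps from 0.3 to 3 (every 0.0005) were tried, and the one with most control values at whole multiples beyond the share expected from the tolerance of 0.06 was kept. In the KO lists used here 88.8% to 96.3% were whole. Ratios are estimated counts over scaled reads, with exact conditional binomial (Clopper-Pearson) 95% intervals from unscaled reads rounded to whole numbers. They cover counting error only and take reads as independent molecules, which was not checked. Library depth is unknown. No event of the locus had 0 reads. On simulated lists of 1709, 738 and 8323 events (H3K36me3, H3K4me3, H3K27ac) the factor was recovered with an error of 0, and 195, 187 and 189 of 200 intervals held the simulated ratio. The simulated control values used were exact multiples, unlike those of the lists, so this recovery checks the search only. The intervals were simulated at a single WT depth with pure counting error.

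The locus, lists and motifs were chosen with earlier results of these data known. The text names Tmem176a and Tmem176b, all events of the locus, the 3 three-mark regions nearest in log2 ratio, and the H3K36me3 regions with most events. Promoter sequences are RefSeq's (GRCm38.p6). Both genes matched by symbol. Related genes were not counted, for want of an mm9 annotation. Computation was in Python 3.11.15 with SciPy 1.17.1, pandas 2.3.3 and NumPy 2.4.6, and plots in matplotlib 3.10.9.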

Additional observations from a re-analysis of the deposited data

How the results depend on the processing

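No paired analysis was possible because replicates are not separated in the files, which also prevents leaving one out. The pooled ratios stayed above 1 under each of the alternatives, which the use of KO-higher lists favours. They ran from 3.72 to 6.90 for H3K36me3, 3.35 to 7.69 for H3K4me3 and 3.22 to 4.78 for H3K27ac. They left the counting interval in unscaled reads (3.72, 7.69 and 4.06), in own background reads (5.70 for H3K4me3 and 3.22 for H3K27ac) and, for H3K4me3, as the median of single events (4.25). With events within 1 kb counted once, the H3K36me3 count fell from 16 to 4 and the H3K4me3 count from 4 to 2, by construction. At a −log10 q of at least 5, 13, 4 and 5 events of H3K36me3, H3K4me3 and H3K27ac remained. The rank of the H3K36me3 region by events was 2, and it became 1 with merging within 2 kb or with the stricter q, 5 with merging within 10 kb, and 9 when ranked by ratio. Widening the window by 10 kb added 0 events. Of 36 alternative values, 24 stayed within the counting interval or within 1.5 times the count. These 24 include settings that added or removed no event, such as the wider window, so the tally is no measure of robustness. Precision is limited most at H3K36me3 events, which had as few as 5.2 scaled reads in WT.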
